A study of Mus musculus with 48 samples.

Results

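The Id, Hes and Hey genes encode inhibitors of differentiation, and 9 of them (Id1, Id2, Id3, Id4, Hes1, Hes5, Hes6, Hey1 and Hey2) are described here in O4+ cells and CD11B+ microglia of the neonatal mouse cortex. They were chosen by name, as the probes other than controls whose gene name in the scanner files was on this list. This gave 9 probes of 55681, for 9 of the 25038 gene names on the arrays, with 1 probe and 1 spot per gene. Male Swiss pups (the strain in the labels; the study's methods name OF1) received PBS or IL1B at 10 ng/g intraperitoneally from P1 to P5, with a single injection on the last day. At P5 or P10, O4+ cells, which hold immature oligodendrocytes and late oligodendrocyte progenitor cells (OPCs), were sorted on magnetic beads, and CD11B+ microglia were then taken from the remaining cells of the same brains. The pups carried no transgene in the labels, and cortices were pooled for each sample. The 48 samples form 8 groups of 6: O4+ cells at P5 with PBS, at P5 with IL1B, at P10 with PBS and at P10 with IL1B, and CD11B+ cells in the same 4 conditions. Nothing in the labels gives the animals behind each sample, so that the p-values measure the spread between these samples.

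Id proteins have a helix-loop-helix but no DNA-binding region. They bind E proteins, the partners that Olig and Ascl factors need, and keep them from DNA. Their genes are targets of BMP signalling through Smad proteins. Hes1, Hes5, Hey1 and Hey2 are repressors with a basic helix-loop-helix, and are switched on when a Notch receptor, cut after binding a Delta or Jagged ligand, joins RBPJ (also called CSL) on DNA. Hes6 is the exception of the family, since it can oppose Hes1. In the oligodendrocyte lineage, Id2, Id4 and Hes5 are known to hold back differentiation and myelin genes, and in endothelial cells Hey1, Hey2 and Id1 are known targets of Notch and BMP signalling.

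Each probe has a position in the mm9 build given by the files. Id1 was read at chr2:152563083-152563142, Id2 at chr12:25778904-25778963, Id3 at chr4:135700075-135700249 and Id4 at chr13:48358668-48358727. Hes1 was read at chr16:30067820-30067879, Hes5 at chr4:154336347-154336406, Hes6 at chr1:93308264-93308323, Hey1 at chr3:8663432-8663491 and Hey2 at chr10:30552729-30552788. The files give no exon or intron for them.

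The promoters of 6 of the 9 genes were listed by RefSeq for the build GRCm38.p6, in 7 windows of 250 bases before the annotated start. The CSL motif GTGGGAA, read on either strand (TTCCCAC on the other), was found in the windows of Hes5 and Hey2, and in 5.42% of all 32851 promoters. Hes5 held it at 2 places, 226 and 83 bases before the start, on opposite strands, and 0.161% of all promoters held it more than once. Hey2 held it once, 207 bases before the start. The letters GGCGCC, a site of BMP-regulated promoters that reads the same on both strands, were found 4 times in the window of Hes5, once in that of Id2 and once in that of Id4, and in 9.59% of all promoters. CACNAG, the N-box bound by Hes proteins, was found once in 1 of the 2 windows of Hes6 and once in that of Id4, and in 36.7% of all promoters. The windows of Hes5 and Hey2 are shown for the CSL motif, in capitals, and that of Id2 because Id2 was called in 3 of the 4 IL1B comparisons. It holds no CSL motif. Each is given 5′ to 3′ on the strand of the gene, Hes5 from the forward strand at chr4:154960673-154960922, Hey2 from the reverse strand at chr10:30842784-30843033 and Id2 from the reverse strand at chr12:25096093-25096342.
Hes5: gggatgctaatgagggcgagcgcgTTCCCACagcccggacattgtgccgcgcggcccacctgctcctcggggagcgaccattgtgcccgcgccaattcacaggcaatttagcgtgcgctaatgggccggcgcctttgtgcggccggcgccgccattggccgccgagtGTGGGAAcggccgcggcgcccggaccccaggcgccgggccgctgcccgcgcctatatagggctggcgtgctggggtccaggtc
Hey2: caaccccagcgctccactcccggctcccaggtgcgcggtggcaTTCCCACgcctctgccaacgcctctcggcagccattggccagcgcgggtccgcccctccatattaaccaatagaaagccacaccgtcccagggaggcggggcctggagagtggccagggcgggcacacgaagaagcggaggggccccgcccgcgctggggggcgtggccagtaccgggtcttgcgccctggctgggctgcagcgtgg
Id2: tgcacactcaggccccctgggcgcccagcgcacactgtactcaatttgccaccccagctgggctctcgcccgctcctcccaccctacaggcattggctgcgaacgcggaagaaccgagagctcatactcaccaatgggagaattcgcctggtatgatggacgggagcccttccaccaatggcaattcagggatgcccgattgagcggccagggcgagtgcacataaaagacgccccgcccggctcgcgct

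The arrays were 1-color Agilent arrays, on which 52.9% to 65.4% of the probes were well above background. Signals were taken to log2 and quantile-normalized, for each cell type by itself (24 arrays) or, where the cell types were set side by side, over all 48 arrays. The call rule asked of limma an adjusted p under 0.05 (Benjamini-Hochberg, over all probes), together with group medians more than 1.5-fold apart. A negative ratio means that the first group was lower. Errors after ± are SD over 6 arrays. The probes were well above background on all 48 arrays, except Hes1 on 47 and Hey2 on 26, of which 24 were O4+ arrays. The sort was read from marker genes. The summed signal of 8 myelin markers was 233741 to 269166 on the O4+ P5 PBS arrays and 6887 to 7769 on the CD11B+ P5 PBS arrays. The summed signal of 12 microglia markers was 158409 to 249552 and 1174460 to 1249850 on the same arrays, so that microglia markers were present in O4+ samples. Some arrays stood apart. The CD11B+ P5 PBS array of replicate 5, alone on its slide, had an astrocyte marker sum of 45168, against 7475 to 15974 on the 5 others of its group. The CD11B+ P10 PBS array of replicate 6 had a neutrophil and monocyte marker sum of 136157. The 3 arrays of slide 9, the replicate 6 arrays of O4+ P10 PBS, O4+ P10 IL1B and CD11B+ P10 IL1B, had the lowest Hes1 signal of their groups (not well above background for O4+ P10 PBS). Some results that rest on these arrays are given without them too. The P5 differences of Hes5 and Id3 between cell types, and the P5 change of Hey2 in CD11B+ cells, are given with them only.

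**Figure D1:**
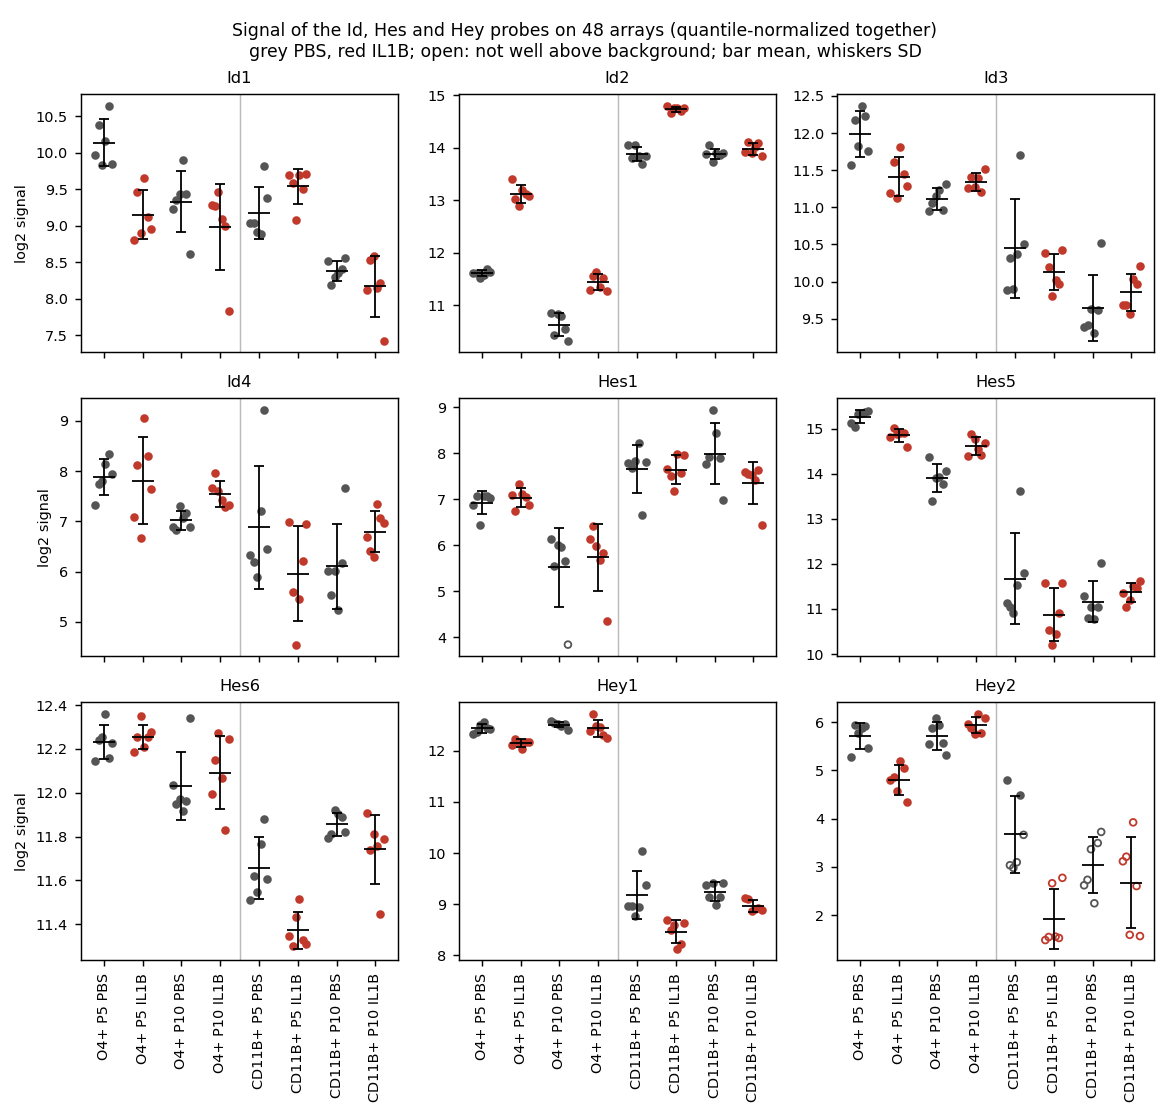
Log2 signal of each of the 9 probes (vertical axes) on the 48 arrays, by group (horizontal axes), with PBS in grey and IL1B in red, the mean as a bar and the SD as whiskers. Open points were not well above background. The 6 CD11B+ P5 IL1B arrays had the highest Id2 signal, with a mean of 14.74, and the O4+ P10 PBS arrays the lowest, with a mean of 10.64.

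PBS samples were used to ask where each gene is read without IL1B. Of the 9 members, 6 were higher and 2 lower in O4+ than in CD11B+ cells at P5, where 41.6% of all probes were called, 19.8% as higher and 21.8% as lower. At P10, 6 were higher and 2 lower, where 42.4% were called, 22.2% as higher and 20.2% as lower. The groups did not overlap for 42.4% of all probes at P5 and 43.5% at P10. The P10 PBS arrays of the 2 cell types shared no slide (O4+ on slides 5 and 9, CD11B+ on slides 6 and 7). Cell type and slide cannot be told apart in the P10 differences.

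Hes5, the Notch effector of neural progenitors, had the widest gap among the higher members at P5. Its log2 signal was 15.04 to 15.39 (median 15.34) in O4+ cells of P5 PBS pups, whereas CD11B+ cells of these pups gave 10.90 to 13.63 (median 11.34). The groups did not overlap, and the difference was 3.60 (SE 0.39, adjusted p = 5.84e-06), a 15.9-fold ratio of medians. The highest CD11B+ value was that of replicate 5. At P10 the difference was 2.75 (SE 0.22, adjusted p = 2.9e-07), 7.36-fold.

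Hey1 was 12.32 to 12.57 (median 12.44) in O4+ and 8.77 to 10.04 (median 8.96) in CD11B+ cells at P5, a difference of 3.27 (SE 0.19, adjusted p = 1.25e-08). At P10 the difference was again 3.27 (SE 0.08, adjusted p = 1.04e-11). Hey2, its relative, was dim in both. It lay between 5.28 and 5.93 in O4+ cells at P5, and was well above background on 2 of 6 CD11B+ arrays. With the CD11B+ arrays that were not above background at the small positive numbers given in the files, the difference was 2.03 (SE 0.32, adjusted p = 0.000154 in limma). Its call was lost with slide as a block (1.96, adjusted p = 0.0525). At P10, no CD11B+ PBS array was above background for Hey2, and O4+ cells were at least 3.28-fold higher. This bound is the mean of the O4+ arrays over the mean, in the CD11B+ arrays, of the lowest signal well above background or the probe's own, whichever was higher. It has no p-value of its own. With dim arrays at the numbers given in the files, the P10 difference was 2.69 (SE 0.25, adjusted p = 1.39e-06 in limma).

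Among the Id genes, Id1 and Id3 were higher in O4+ cells, and Id2 was lower. Id3 differed by 1.54 at P5 (SE 0.28, adjusted p = 0.000506) and by 1.46 at P10 (SE 0.18, adjusted p = 1.96e-05). Id1 differed by 0.96 (SE 0.19, adjusted p = 0.000784) and 0.95 (SE 0.17, adjusted p = 0.000474). On slide 4, the only slide with PBS arrays of both cell types at P5 (2 O4+ and 1 CD11B+), the difference was 0.45 for Id1 and 1.29 for Id3, and with slide as a block the P5 call of Id1 was lost (adjusted p = 0.157). Id2 was 11.53 to 11.70 (median 11.61) in O4+ and 13.70 to 14.05 (median 13.85) in CD11B+ cells at P5. The ratio of medians was -4.71 at P5 (difference -2.27, SE 0.06, adjusted p = 4.39e-11) and -9.23 at P10 (difference -3.25, SE 0.10, adjusted p = 5.48e-11). Id4 differed by 1.00 at P5 (95% interval -0.08 to 2.08, adjusted p = 0.112) and by 0.92 at P10 (SE 0.33, adjusted p = 0.0354), where it was called. Its P5 difference was 1.47 without the CD11B+ array of replicate 5, and its call at P10 was lost under 16 of 25 alternative settings. Hes1, the Notch effector of many tissues, was lower in O4+ cells at P5 (-0.74, SE 0.22, adjusted p = 0.0145) and at P10 (-2.47, SE 0.42, adjusted p = 0.000255). Its P5 call was lost with the cell types normalized apart (-0.22, adjusted p = 0.463) and with scan date as a block (-0.59, adjusted p = 0.0789). Without slide 9 the P10 difference was -2.13. Hes6 differed by 0.58 at P5 (SE 0.07, adjusted p = 1.1e-05), 1.54-fold, and by 0.17 at P10 (adjusted p = 0.0578), not called. Its P5 difference was 0.06 in the deposited matrix and 0.16 when arrays were scaled by their 75th percentile, which moved the median of all probes to -0.45 and -0.35.

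Over all 8 groups, Id2 gave the clearest order. It was highest in CD11B+ P5 IL1B cells (14.74 ± 0.05), followed by CD11B+ P10 IL1B (13.98 ± 0.11), P10 PBS (13.89 ± 0.10) and P5 PBS (13.89 ± 0.14), which overlapped. O4+ P5 IL1B cells followed (13.13 ± 0.17), and then O4+ P5 PBS (11.61 ± 0.06) and O4+ P10 IL1B (11.44 ± 0.15), which overlapped, and O4+ P10 PBS (10.64 ± 0.23). For Id2, 4 of the 7 neighbours in this order did not overlap. For Hey1 this number was 3, for Hes5 it was 2, for Id1, Hes1 and Hey2 it was 1, and for Id3, Id4 and Hes6 it was 0. The same count was not made over all probes. Between cell types alone, the PBS groups did not overlap for 42.4% of all probes at P5 and 43.5% at P10. The span from the highest to the lowest group mean was widest for Hes5 (4.40) and narrowest for Hes6 (0.88), in log2 units.

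**Figure D2:**
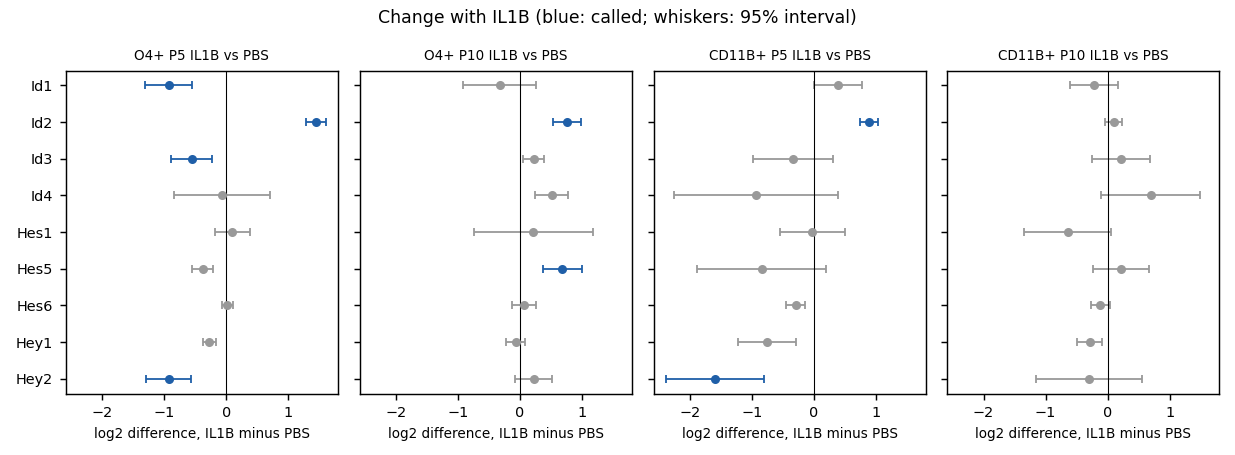
Log2 difference between IL1B and PBS (horizontal axes) for the 9 members (vertical axes), in O4+ and CD11B+ cells at P5 and P10, with 95% intervals as whiskers and blue where the probe was called. Id2 was called higher in 3 of the 4 panels, and 3 members were called lower in O4+ cells at P5.

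In O4+ cells at P5, after 5 days of IL1B, Id2 rose 2.69-fold, and Id1, Id3 and Hey2 fell. Hence 1 member was called higher, where 3.43% of all probes were, and 3 lower, where 1.49% were. In either direction 4.92% of all probes were called. The median difference of the members was -0.27, against -0.04 over all probes. Id2 was 11.59 to 11.75 (median 11.67) without IL1B, and with IL1B it was 12.89 to 13.38 (median 13.09). All 6 IL1B arrays lay above all PBS arrays. The difference was 1.45 (SE 0.07, 95% interval 1.29 to 1.60, adjusted p = 7.26e-07).

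Id1, the Id gene known from endothelial cells, ran from 10.00 to 10.75 (median 10.22) in PBS samples and from 9.02 to 9.84 (median 9.25) in IL1B samples. No IL1B array reached the PBS range, and the difference was -0.93 (SE 0.17, adjusted p = 0.00321), a ratio of -1.95. Hey2, the arterial Notch effector, ran from 5.54 to 6.20 (median 6.10) in PBS samples and from 4.57 to 5.44 (median 5.08) in IL1B samples. The groups did not overlap either (difference -0.93, SE 0.16, adjusted p = 0.00249, ratio -2.03). Id3 ran from 11.62 to 12.39 (median 12.04) in PBS samples and from 11.20 to 11.86 (median 11.43) in IL1B samples, and 4 of the 6 IL1B arrays lay below the PBS range. Its difference of -0.55 (SE 0.15, adjusted p = 0.0258) came with a ratio of -1.54, near the threshold. Its call was lost without any of 6 of the 12 arrays, taken one at a time (PBS replicates 2, 4 and 5 and IL1B replicates 1, 3 and 6), and with slide as a block (-0.51, adjusted p = 0.185). With slide as a block, Hey2 was also lost (-0.88, adjusted p = 0.0688), and normexp background correction gave it -0.42, under the fold threshold.

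Slides held unequal numbers of both treatments. On slide 1, with 1 IL1B and 4 PBS arrays, the difference was 1.34 for Id2, -0.77 for Id1, -0.46 for Id3 and -0.90 for Hey2. On slide 4, with 1 and 2 arrays, these were 1.74, -0.98, -0.58 and -0.85. The other slide of the IL1B group held 4 IL1B arrays and no O4+ PBS array.

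The Notch effectors Hes5 and Hey1 shifted less. Hes5 ran from 14.95 to 15.28 (median 15.22) in PBS samples and from 14.55 to 14.93 (median 14.82) in IL1B samples, and Hey1 was 12.35 to 12.59 (median 12.46) and 12.08 to 12.27 (median 12.21). In neither did the groups overlap, as in 11.5% of all probes. The differences of -0.38 (SE 0.08, adjusted p = 0.00483, ratio -1.32) and -0.27 (SE 0.05, adjusted p = 0.00268, ratio -1.19) stayed under the fold threshold. Id4 differed by -0.07 (95% interval -0.85 to 0.70, adjusted p = 0.916), with IL1B arrays between 6.93 and 9.28. Hes1 differed by 0.10 (-0.17 to 0.38, adjusted p = 0.635) and Hes6 by 0.02 (-0.07 to 0.11, adjusted p = 0.783).

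Markers of other cells moved in the same arrays. Of 12 microglia markers, 10 were called higher and 0 lower (for example C1qa, 1.64), with a summed signal of 413357 to 544191 on the IL1B arrays. Of 8 neutrophil and monocyte markers, 7 were called higher (S100a8, 6.20). Of 12 endothelial markers, 9 were called lower (Cldn5, -1.27), and of 6 arterial endothelial markers, 5 (Gja5, -3.37, Sox17, -1.46). The summed signal of the arterial markers was 4553 to 10746 with PBS and 1989 to 2896 with IL1B. Of 7 astrocyte markers, 0 were called, and 0 had an unadjusted p under 0.05 in limma. Their summed signal was 36672 to 50472 with PBS and, more widely spread, 35078 to 69937 with IL1B. Mural cell markers gave 0 calls of 8, and 5 had an unadjusted p under 0.05. In the myelin list, 1 of 8 markers was called, Opalin (-0.78), and 6 had an unadjusted p under 0.05. The part of these cells in the changes of the members was not tested. Fewer cells of a type and less RNA per cell cannot be told apart in these samples. In PBS samples, Id2 was itself higher in CD11B+ than in O4+ cells, and Id1, Id3 and Hey2 were lower.

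**Figure D3:**
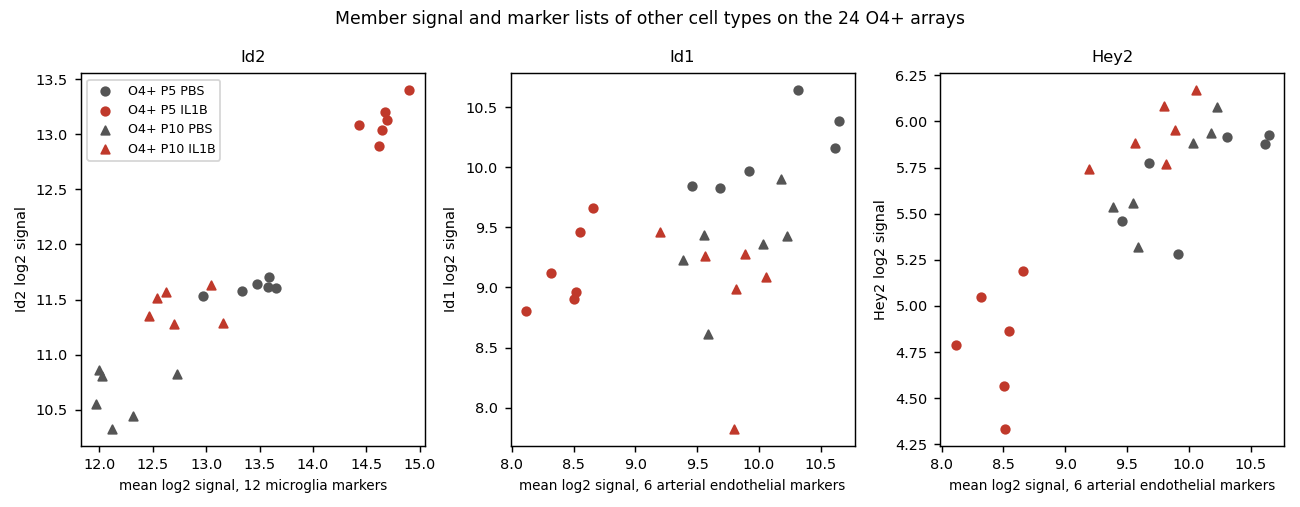
Log2 signal of Id2, Id1 and Hey2 (vertical axes) against the mean log2 signal of 12 microglia markers (Id2) or 6 arterial endothelial markers (Id1 and Hey2) on the 24 O4+ arrays, with PBS in grey, IL1B in red, P5 as circles and P10 as triangles. The P5 IL1B arrays sit at the highest microglia marker means, 14.43 to 14.90, and at the lowest arterial marker means, 8.12 to 8.66.

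At P10, 5 days after the last injection, Id2 and Hes5 were higher in IL1B than in PBS O4+ cells and no member was lower. These 2 calls compare with 2.49% of all probes called higher and 3.9% in either direction. The median difference of the members was 0.22, against -0.02 over all probes. Id2 ran from 10.46 to 10.96 (median 10.78) in PBS samples and from 11.35 to 11.68 (median 11.50) in IL1B samples. The groups did not overlap, as in 6.24% of all probes, with a difference of 0.76 (SE 0.10, adjusted p = 0.00223) and a ratio of 1.64. Hes5 ran from 13.38 to 14.33 (median 13.90) in PBS samples and from 14.35 to 14.82 (median 14.57) in IL1B samples, so that the lowest IL1B array lay just above the highest PBS array. The difference was 0.68 (SE 0.14, adjusted p = 0.0127) and the ratio 1.59. The call of Hes5 was lost with slide as a block (0.70, adjusted p = 0.054), and with scaling to the 75th percentile (0.43) or the deposited matrix (0.45), which shifted the median of all probes by -0.19 and -0.17. On slide 5, with 2 IL1B and 5 PBS arrays, Hes5 differed by 0.73 and Id2 by 0.69, and on slide 9, with 1 of each, by 0.60 and 0.89.

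Id4, another Id gene of the oligodendrocyte lineage, ran from 7.09 to 7.56 (median 7.25) in PBS samples and from 7.54 to 8.20 (median 7.77) in IL1B samples, with 5 of 6 IL1B arrays above the PBS range. The difference of 0.51 (SE 0.12, adjusted p = 0.0225) came with a ratio of 1.44, under the threshold. The other members were not called. Id3 differed by 0.22 (95% interval 0.05 to 0.38, adjusted p = 0.0898), Hey2 by 0.22 (-0.08 to 0.51), Hes1 by 0.22 (-0.75 to 1.18), Hes6 by 0.06, Hey1 by -0.07 and Id1 by -0.33 (-0.92 to 0.26). Without slide 9 the number of called members was again 2.

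Beside these, 2 of 7 OPC markers were called higher (Pdgfra, 0.94, and Cspg5, 0.73), 3 of 6 cell cycle markers were (Mki67, 0.97, and Ccnb1, 1.07), and 4 of 8 myelin markers were called lower. Of 12 microglia markers 7 were called higher, with a summed signal of 111775 to 173294 against 75237 to 133560 with PBS. Of 7 astrocyte markers 3 were higher (Aqp4, 0.73). Of 8 neutrophil and monocyte markers 4 were called higher (S100a8, 2.82, and S100a9, 3.81, with Mpo and Ngp above background on 0 of 6 PBS arrays), with a summed signal of 694 to 1665 against 443 to 647 with PBS. Of 12 endothelial and of 6 arterial markers 0 were called in limma (1 of the 12 endothelial markers had an unadjusted p under 0.05). Their part in the values of Id2 and Hes5 was not tested.

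The O4+ responses of 4 members differed between P5 and P10 by the interaction term, called in 13.1% of all probes. The change of Id2 was smaller at P10 (-0.69, SE 0.13, adjusted p = 0.000913), and that of Hes5 (1.07, SE 0.17, adjusted p = 0.000172), Hey2 (1.14, SE 0.22, adjusted p = 0.00111) and Id3 (0.77, SE 0.17, adjusted p = 0.00429) was shifted upward. For Id1 the difference of 0.60 missed the threshold (adjusted p = 0.273). It was 0.82 (adjusted p = 0.0359) without the P10 IL1B array of replicate 6, which had the lowest Id1 signal of its group.

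**Figure D4:**
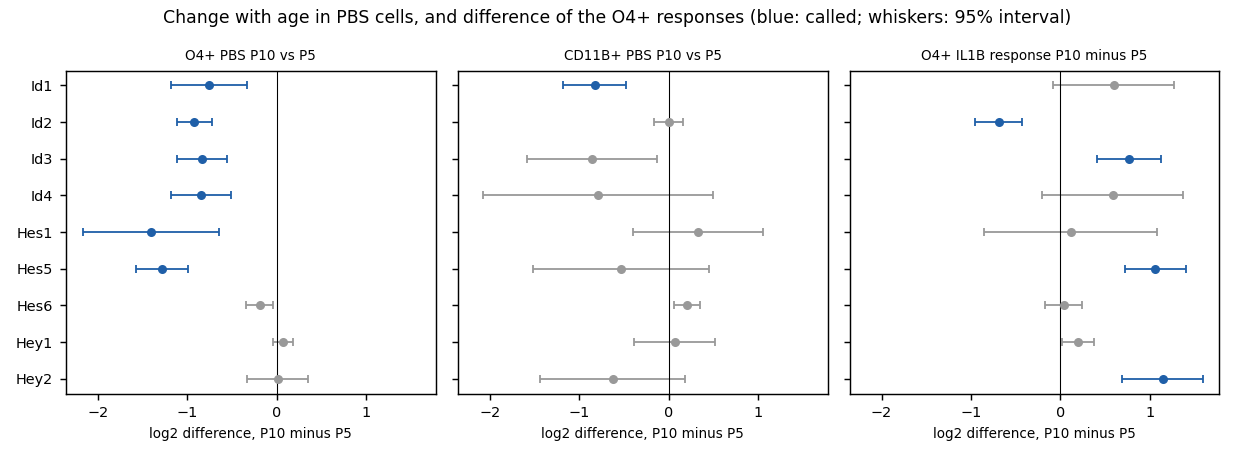
Log2 difference (horizontal axes) between P10 and P5 in PBS O4+ and CD11B+ cells, and between the O4+ responses to IL1B at P10 and P5, for the 9 members (vertical axes), with 95% intervals as whiskers and blue where called. In O4+ PBS cells 6 of 9 members were lower at P10.

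In PBS pups, O4+ cells at P10 had less of 6 members than at P5: all 4 Id genes, Hes1 and Hes5. Of all probes, 8.96% were called lower, 7.85% higher and 16.8% in either direction. The median difference of the members was -0.84, against 0.02 over all probes. Hes5 was 14.95 to 15.28 at P5 and 13.38 to 14.33 at P10, without overlap, and differed by -1.28 (SE 0.13, adjusted p = 1.74e-05), a ratio of -2.50. Hes1 was 6.70 to 7.34 (median 7.31) at P5 and 4.07 to 6.40 (median 6.08) at P10. It differed by -1.41 (SE 0.35, adjusted p = 0.00777), and by -1.07 without slide 9.

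Among the Id genes, Id2 differed by -0.92 (SE 0.09, adjusted p = 9.58e-06), Id3 by -0.84 (SE 0.13, adjusted p = 0.000338), Id4 by -0.85 (SE 0.15, adjusted p = 0.00107) and Id1 by -0.76 (SE 0.19, adjusted p = 0.00915). Ratios of medians lay between -1.84 and -1.55. The groups did not overlap, as in 24.4% of all probes, except for Id1, with 5 of 6 P10 arrays below the P5 range. The Id1 ratio of -1.55 fell under the threshold without PBS P5 replicate 2, 4 or 5. Hey1 and Hey2 gave 0.07 (95% interval -0.04 to 0.18) and 0.01 (-0.33 to 0.36), and Hes6 -0.19 (-0.35 to -0.04, adjusted p = 0.053). The P5 and P10 arrays of these groups lay on different slides and were scanned on different days, so that age cannot be told apart from slide and scan day. The P10 IL1B comparison shares the P10 PBS arrays with this one. By group means, Hes5 fell from 15.17 to 13.88 with age in PBS cells and stood at 14.57 in P10 IL1B cells, and Id2 fell from 11.67 to 10.75 and stood at 11.50.

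With age, 7 of 8 myelin markers were called higher (median of the list 3.68), while 6 of 6 cell cycle markers (Mki67, -1.70), 3 of 7 OPC markers, 11 of 12 microglia markers, 8 of 12 endothelial and 5 of 8 mural cell markers were lower. The lower mural cell markers included Cspg4 (-1.15), which was 21.5-fold higher in O4+ than in CD11B+ cells of P5 PBS pups. The mural cell markers Acta2 (0.25) and Tagln (0.11) were not called. The part of the cells of these lists in the fall of the members was not tested.

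In CD11B+ cells at P5, Id2 rose with IL1B and Hey2 was called lower, where 9.3% of all probes were called, 4.05% higher and 5.25% lower. Id2 ran from 13.72 to 14.08 (median 13.87) in PBS samples and from 14.72 to 14.86 (median 14.82) in IL1B samples, without overlap. The difference was 0.89 (SE 0.07, adjusted p = 3.29e-06), 1.94-fold. Hey2 was well above background on 2 of 6 PBS arrays, replicates 1 and 5, and on 0 of 6 IL1B arrays. With dim arrays at the small positive numbers given in the files, the difference was -1.59 (SE 0.36, adjusted p = 0.00741 in limma). Its size therefore rests on numbers that stand in for signals not above background. With dim IL1B values raised to the lowest signal well above background and dim PBS values left as they were, Hey2 was 1.05-fold lower. This ratio is no strict bound, since most PBS arrays were dim too, and it has no p-value of its own. Hey2 was not called in limma with slide as a block (adjusted p = 0.27) or with normexp (-0.23). Hey1 ran from 8.55 to 9.88 (median 8.75) in PBS samples and from 7.89 to 8.46 (median 8.30) in IL1B samples, without overlap, as in 15.8% of all probes. Its difference of -0.75 (SE 0.21, adjusted p = 0.0261) came with a ratio of -1.36 and was not called. Hes6 differed by -0.30 (SE 0.07, adjusted p = 0.0121), also under the fold threshold. Id1 differed by 0.39 (95% interval -0.01 to 0.78, adjusted p = 0.167), and by 0.52 (adjusted p = 0.02) without the PBS array of replicate 5, where it was called. Id3, Id4, Hes1 and Hes5 were not called, with adjusted p from 0.269 to 0.96. In the same arrays, 10 of 12 endothelial and 5 of 6 arterial markers were lower, 3 of 7 OPC markers were lower, 5 of 6 cell cycle markers were lower and 8 of 8 neutrophil and monocyte markers were higher. Their part in the changes of Id2 and Hey2 was not tested.

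At P10, 0 members were called in CD11B+ cells with limma, and also 0 with the equal-variance test of the study's methods, where limma called 2.17% of all probes, 1.09% higher and 1.08% lower. An unadjusted p under 0.05 was found for 1 member, Hey1 (-0.29, SE 0.09, adjusted p = 0.0742). Id2 differed by 0.10 (95% interval -0.05 to 0.24). Without the PBS array of replicate 6, Id4 was called (1.01, adjusted p = 0.0185). The P5 and P10 responses of CD11B+ cells differed for Id2 alone (-0.80, SE 0.09, adjusted p = 3.73e-06), where 16.8% of all probes differed.

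With age in PBS CD11B+ cells, Id1 fell by 0.83 (SE 0.16, adjusted p = 0.00287) on the log2 scale, a ratio of -1.61. Of all probes, 3.61% were lower, 4.65% higher and 8.26% called in all. The Id1 groups did not overlap, as in 13.3% of all probes. The P5 and P10 arrays of these groups lay on different slides and were scanned on different days. Age cannot be told apart from slide and scan day here. In the same arrays, 9 of 12 endothelial markers were lower (Cldn5, -0.96, Cdh5, -1.12, and Esam, -1.09), with a summed signal of 31391 to 43726 at P5 and 19568 to 26016 at P10, as were 2 of 6 arterial markers, and 7 of 8 myelin markers were higher. Their part in the fall of Id1 was not tested. Id3 differed by -0.85 (SE 0.33, adjusted p = 0.0988). Without the P10 PBS array of replicate 6 it differed by -1.04 (adjusted p = 0.0349) and was called. Id2 differed by 0.00 (95% interval -0.16 to 0.16), against the -0.92 of O4+ cells. The difference between cell types in the change with age was not tested.

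The responses of O4+ and CD11B+ cells at P5 differed for 3 members, where 10.7% of all probes differed. The response of Id1 was lower in O4+ cells (-1.35, SE 0.25, adjusted p = 0.000821). The responses of Id2 (0.66, SE 0.10, adjusted p = 7.13e-05) and Hes6 (0.31, SE 0.08, adjusted p = 0.0189) were higher, but neither passed with the deposited matrix (adjusted p = 0.0905 and 0.102), nor Hes6 with slide as a block (adjusted p = 0.471). At P10 the responses differed for Id2 alone (0.71, SE 0.13, adjusted p = 0.0017), where 7.56% of all probes did.

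The genes around the members were read from lists of the Notch and BMP pathways and of the proteins that Id and Hes proteins bind, with the probe of most signal for each gene. In O4+ cells at P5, the ligands Dll4 and Jag2 fell among 5 Notch ligands (0 rose), with differences of -1.07 (SE 0.20, adjusted p = 0.00325) and -1.17 (SE 0.18, adjusted p = 0.00125). Among 4 receptors, Notch2 rose (0.82, SE 0.13, adjusted p = 0.00163; its other probe was 0.55 and not called) and Notch4, known from endothelial cells, fell (-1.06, SE 0.20, adjusted p = 0.00367). In PBS samples at P5, Notch2 was lower in O4+ than in CD11B+ cells (-2.52) and Notch4 was higher (1.01). Among 15 regulators and effectors, Lfng, a glycosyltransferase that modifies Notch receptors, rose (1.34, SE 0.15, adjusted p = 0.000106 in limma) and 0 fell. Of 5 BMP ligands, Bmp4 fell (-0.71, SE 0.05, adjusted p = 9.46e-06; its other probe was -0.42 and not called). Of 8 BMP receptors, 0 were called in limma, and 4 had an unadjusted p under 0.05. Of 14 Smads and inhibitors, Smad6, an inhibitory Smad that BMP signals switch on, fell (-2.11, SE 0.21, adjusted p = 5.93e-05), and 0 of 11 bHLH partners and corepressors were called (Tle5 had no probe).

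In O4+ cells at P10, Dll3 rose among Notch ligands (0.75, SE 0.14, adjusted p = 0.00891), Bmpr1b among BMP receptors (0.59, SE 0.15, adjusted p = 0.0283), and Smurf1 fell among Smads and inhibitors (-0.76, SE 0.21, adjusted p = 0.0367). Of 4 Notch receptors, 15 Notch regulators, 5 BMP ligands and 11 bHLH partners, 0 were called in limma, and 0, 6, 3 and 6 had an unadjusted p under 0.05. The second probe of Rbpj, with less signal, was called lower (-0.59, against -0.27 on the first).

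With age in PBS O4+ cells, 3 of 5 Notch ligands fell, led by Dll3 (-1.43, SE 0.12, adjusted p = 3e-06), while the other probe of Dll1 moved the other way. Notch3 fell among receptors (-0.62), and Notch1 was called lower on 1 of its 2 probes, that of less signal (-0.63, the other 0.34). Of 15 regulators 5 fell, among them Nrarp, a target and brake of Notch (-1.20), and Mfng (-1.18), and Rbpj rose (0.59). Of 5 BMP ligands, 4 fell, among them Bmp7 (-1.27, SE 0.20, adjusted p = 0.000327), Bmp6 (-1.43) and Bmp2 (-1.06), and Bmp4 was called higher on 1 of its 2 probes (0.69, the other -0.38). Bmp5 was the other BMP ligand called lower (-1.32), but was above background on 3 of 6 P5 and 0 of 6 P10 arrays. For Bmp6 these were 6 of 6 P5 and 4 of 6 P10 arrays. Smad7 and Smurf1 rose (1.27 and 1.85) and Bmper fell (-0.67). Of 11 bHLH partners, Neurog2 was called higher, and was above background on 6 of 6 P10 and 0 of 6 P5 arrays.

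In CD11B+ cells at P5, 3 of 5 Notch ligands fell, among them Dll4 (-1.21, SE 0.28, adjusted p = 0.00847). The others, Dll1 (-1.16) and Dll3 (-0.88), were called on 1 of 2 probes each, with 0.00 and -0.73 on the other probe. Also lower were Notch3 (-1.34) and Notch4 (-1.09) among 4 receptors. Rbpj (0.70) and Lfng (0.87) rose and Nrarp (-1.30) and Heyl (-1.22) fell among 15 regulators. Of 5 BMP ligands, Bmp2 (-1.40, SE 0.11, adjusted p = 3.53e-06) and Bmp4 (-0.79, with -0.06 on its other probe, not called) fell, and Smad6 fell (-0.66). Chrd was called higher (0.74) on 1 of 2 probes, with -0.01 on the other, and Fst was called higher (1.42), with 5 of 6 IL1B arrays and 0 of 6 PBS arrays above background. At P10, Dll1 (-0.64), Nrarp (-0.66), Maml3 (-0.54) and Bmp4 (-0.93) were called lower, the last 2 with another probe on the other side of 0. These comparisons share samples with each other where they share a group, so each is given by its own values. The part of other cell types in the changes of the Notch, BMP and partner genes was not tested.

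**Figure D5:**
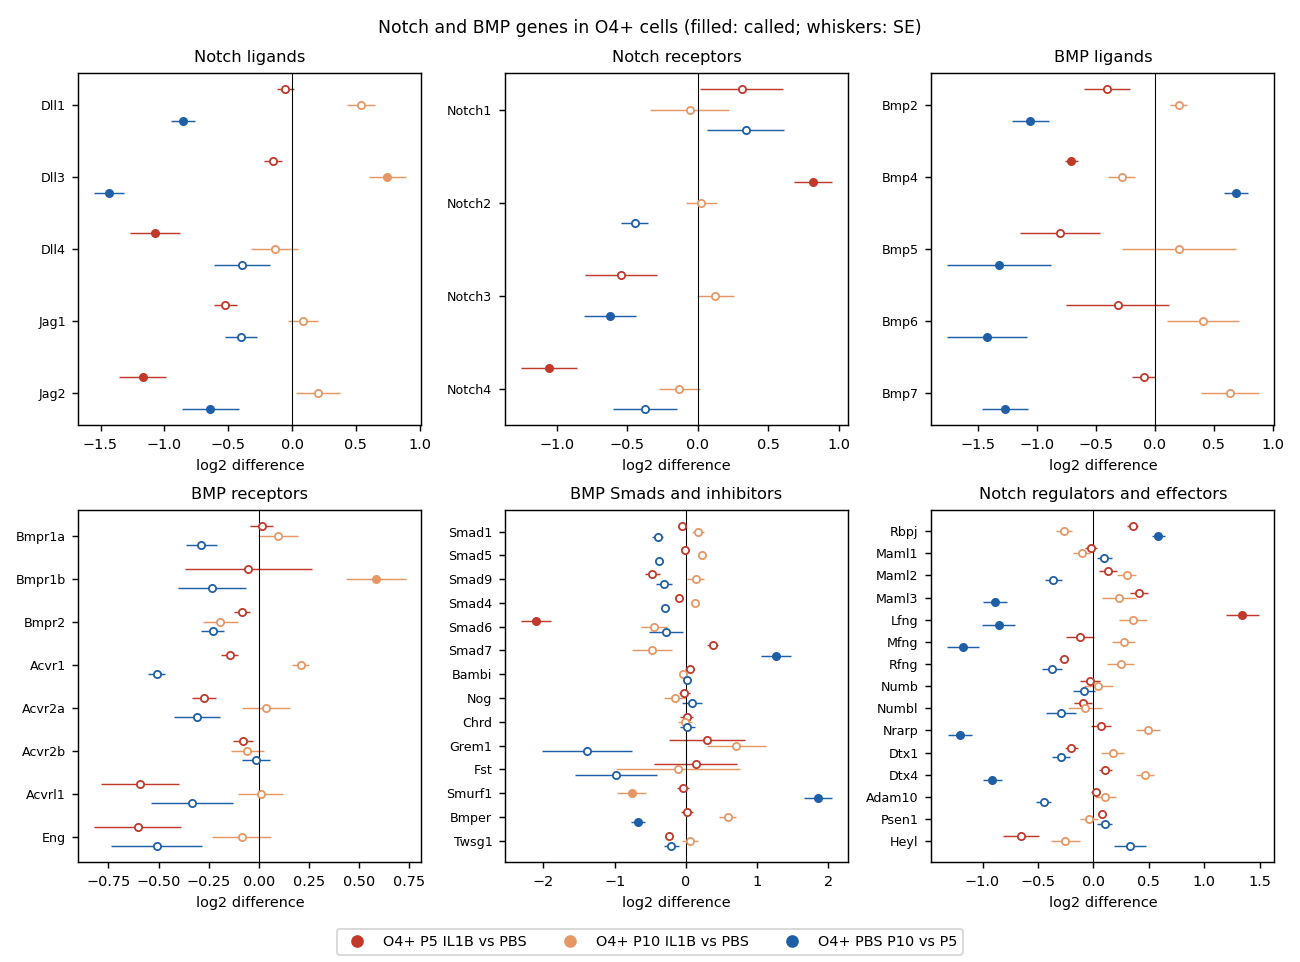
Log2 difference (horizontal axes) of the genes of 6 Notch and BMP lists (vertical axes) in O4+ cells, for IL1B at P5 (red), IL1B at P10 (orange) and age in PBS cells (blue), with SE as whiskers and filled points where called. Smad6 gave -2.11 with IL1B at P5, and 4 of 5 BMP ligands were lower with age, among them Bmp5, above background on 0 of 6 P10 arrays.

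Across the 24 O4+ arrays, the genes most like each member were found by Pearson's r among 27459 probes that were above background on all 24. These arrays share 4 groups, so that the values describe the pattern over groups and arrays together. Id2 was nearest to Trib1 (0.986), Csf2ra (0.984) and Akap13 (0.982). Id1 was nearest to Fam171a1 (0.899), Sdk2 (0.868) and Foxf2 (0.862), Id3 to Apcdd1 (0.967), Bsg (0.964) and Tgfb1i1 (0.945), and Id4 to Celsr1 (0.926), Gli3 (0.922) and Nme5 (0.920). Hes5 was nearest to Dnahc7a (0.977), Zwint (0.975) and Ncan (0.971), and Hes6 to St6galnac4 (0.841), Pvrl2 (0.831) and Rfc2 (0.829). Hey1 was nearest to G2e3 (0.885), Gstk1 (0.876) and Armcx1 (0.859), and Hey2 to Degs2 (0.904), Slco1a4 (0.888) and Cxcl12 (0.878). For Hes1, the nearest named genes were 4930401B11Rik (0.968) and Gm13196 (0.962). Among the members themselves, Id3 and Hes5 (0.74), Id3 and Id4 (0.70), and Hey1 and Hey2 (0.68) were the most alike, and Id2 and Hey1 the least (-0.77).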

How the data were processed

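RNA from 24 O4+ and 24 CD11B+ samples was measured on 1-color Agilent 8x60K arrays, 1 per sample. The authors labelled total RNA with Cy3 and deposited scanner files read by Agilent Feature Extraction 10.7.3.1. Each file holds, per spot, the deposited mean intensity, its background and a background-subtracted intensity, with a small positive number in place of signals not above background. The deposited matrix holds the ratio of this signal to the median of the array (largest deviation from that, 1.86e-05 on the log2 scale). Of 59305 spots, 278 non-uniform spots over all arrays were left out, and 0 were saturated. Intensities were taken to log2, quantile-normalized and averaged per probe, without a filter on dim probes. Arrays of a group correlated at 0.959 or more.

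Groups were taken from sample titles. Groups of 6 were compared in limma 3.58.1 (R 4.3.3), in place of the equal-variance test of the study's methods, which was run as an alternative. Differences of responses were interaction terms, called at an adjusted p under 0.05 without a fold threshold. The p-values were adjusted over 55681 probes. The code was tested on simulated data. For list genes with several probes, the probe of most signal was used. At most 4 called genes per list and comparison were named, by the ratio of medians, except that all called BMP ligands were named with age in O4+ cells. The members and lists were chosen with earlier results of these data known. The number of arrays limits the precision. The alternatives were other scalings, background corrections, thresholds, filters and fits, blocks for scan date, slide and replicate number, and leaving out each array. The labels place P5 sampling 2 h after the last injection, and the study's methods give a longer interval, so that the time behind the P5 values is uncertain. The P10 samples' descriptions name P5, and their titles and stages, which say P10, were used. Slide and scan date were read from the files. Sequences of proteins were not analysed here.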

Additional observations from a re-analysis of the deposited data

Results flagged for a closer look

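Arrays far from the others of their group, by the gap to the nearest array over the range of the group, were found in 12 of the 72 combinations of member and group, which chance gives in about 1 of 20. Values are log2 signals within a cell type. For Id1, these were replicate 6 of O4+ P10 IL1B (8.071, the nearest array at 9.205) and replicate 3 of CD11B+ P5 IL1B (8.871, the nearest at 9.321). For Id3, they were replicate 5 of CD11B+ P5 PBS (11.65, the nearest at 10.39) and replicate 6 of CD11B+ P10 PBS (10.4, the nearest at 9.454). For Hes5, replicate 5 of CD11B+ P5 PBS stood at 13.65, with the nearest at 11.75. For Hes6, replicate 6 of O4+ P10 PBS stood at 12.36, with the nearest at 12.08, and replicate 5 of CD11B+ P10 IL1B at 11.38, with the nearest at 11.69.

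Hes1 had 5 such arrays. Replicate 3 of O4+ P5 PBS was at 6.703, replicate 5 of CD11B+ P5 PBS at 6.404, and the 3 arrays of slide 9 at 4.068 (O4+ P10 PBS), 4.584 (O4+ P10 IL1B) and 6.174 (CD11B+ P10 IL1B), each the lowest of its group.

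Responses to IL1B differed between groups by the interaction term for 9 values. Between P10 and P5 in O4+ cells, the response differed by -0.6883 for Id2, 0.7732 for Id3, 1.065 for Hes5 and 1.144 for Hey2, and in CD11B+ cells by -0.7959 for Id2. Between O4+ and CD11B+ cells, it differed at P5 by -1.354 for Id1, 0.6619 for Id2 and 0.3051 for Hes6, and at P10 by 0.7113 for Id2.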

How the results depend on the processing

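In 2975 recomputed values of the members, 0 called values reversed, and 68 uncalled values changed sign. Outside of leaving out arrays, 30 values lost and 14 gained a call. Id2 kept its call in O4+ cells at P5 (1.29 to 1.53) and P10 (0.69 to 0.80) and in CD11B+ cells at P5 (0.83 to 1.00) under all alternatives run. In O4+ cells at P5, 2 members were called with normexp background correction and 2 with slide as a block, against 4. At P10, 1 was called with scaling to the 75th percentile, 1 with the deposited matrix, 1 with slide as a block and 1 with the replicate block, against 2. In CD11B+ cells at P5, 1 was called with normexp, 1 with only probes above background, 1 with slide as a block and 4 without a fold threshold, against 2. With age in CD11B+ PBS cells, 0 were called with normexp, 2 without a fold threshold and 2 with all groups in 1 fit, against 1. The CD11B+ response differed between ages for 2 members with scan date as a block, against 1. The P5 response differed between cell types for 1 member with the deposited matrix, against 3. The cause was not tested. At P10 in O4+ cells, scaling to the 75th percentile gave 1532 probes higher and 2073 lower, against 1384 and 789.

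Leaving out each array in turn, the called members ranged from 3 to 4 (O4+ P5), 2 to 3 (O4+ P10), 2 to 3 (CD11B+ P5), 0 to 1 (CD11B+ P10), 5 to 6 (O4+ age), 1 to 2 (CD11B+ age), 8 to 9 (cell types, P5), 7 to 8 (cell types, P10), 4 to 5 (O4+ response between ages), 1 to 2 (CD11B+ response between ages), 3 to 3 (P5 response between cell types) and 1 to 1 (P10). The 2 calls of CD11B+ response between ages arose without CD11B+ P5 PBS replicate 5, and the extra calls at P10 and with age in CD11B+ cells without P10 PBS replicate 6. Leaving out slide 9, added after the data were seen, left 2, 6 and 7 called for O4+ P10, O4+ age and cell types at P10.

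Replicate numbers are shared by all groups, but in 0 of the 8 comparisons of 2 groups were all 6 same-number correlations over 0.1 (O4+ P5 0.087 to 0.313, cell types at P5 0.0417 to 0.365), so that they were not taken as pairs. Since both cell types came from the same brains, the comparisons of cell types share animals, which the fit without a block ignores. In the P5 and P10 PBS comparisons of cell types, 5 and 4 of 6 arrays correlated best with their own number. With the replicate block, Hes5 lost its call in O4+ cells at P10 (0.68, adjusted p = 0.0587), Id4 lost its call between cell types at P10 (0.92, adjusted p = 0.0562), and 7 members were called there, 8 between cell types at P5, 4 at O4+ P5, 2 at CD11B+ P5 and 6 with O4+ age. Averaging over all probes of a gene was not run separately, since each member has 1.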
